A study of Mus musculus with 2 samples.

Results

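In 453 places on the mouse autosomes, p53 peaks followed one another so closely that 5 or more of them formed a tight chain. Peaks on chromosomes 1 to 19 were sorted by start and joined where at most 2000 bases lay between the end of a peak and the start of the next, and all peaks of chains with 5 or more were kept. These chains held 2621 of the 92231 autosomal peaks (2.84%; exact 95% binomial interval 2.74% to 2.95%) and of the 92924 peaks of the whole list. The remaining autosomal peaks comprised 30078 in chains of 2 to 4 and 59532 that had no other peak within that distance. Members were chosen by the starts and ends of the peaks and by no other value, so chain size, span and gaps are descriptions of the rule's outcome and carry no test.

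The list comes from a single p53 ChIP library (antibody P53(M-19)) compared with a single input library, both from mouse embryonic stem cells of a C57BL/6X129Sv mix grown with leukemia inhibitory factor and exposed to Nutlin for 8 hours. The series design gives the Nutlin dose as 20 µM and the sample protocols as 20 mM, and which is right is unknown. There was no untreated library and no second culture, so neither a response to Nutlin nor a spread between cultures could be measured, and no test between conditions was possible. Read depth is unknown. Intervals cover the counting of peaks or chains only and treat peaks as independent, which neighbours are not.

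p53 is a sequence-specific transcription factor that acts as a tetramer. Its response elements consist of a pair of half-sites, and many of its target genes carry an element in the promoter or the first intron. Mdm2 is the ubiquitin ligase that keeps p53 low, and Nutlin blocks their contact so that p53 accumulates. In embryonic stem cells p53 is known both for activating stress genes and for a part in differentiation. A ChIP peak is a stretch of DNA recovered more often with the antibody than in input, and it can hold one bound element, several, or none. Positions are in build mm9. No gene annotation or genome sequence of that build was used here, so chains are named by position and no sequence is printed.

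Most chains were short: 257 had exactly 5 peaks (56.7% of the 453), 114 had 6 and 51 had 7. Another 31 chains (6.84%) had 8 or more, and 12 had 10 or more. The largest held 17 peaks, with no chain of 13 to 16 below it. The median span from first start to last end was 7098 bases (quartiles 6013 and 8523), with extremes of 3544 and 32906 bases. Peaks inside chains were separated by a median of 690 bases (2168 gaps, quartiles 247 and 1234). Gaps of at most 100 bases made up 11.4% of these (247 gaps), and gaps over 1000 bases made up 33.9% (735 gaps). Together the chains spanned 3.48 Mb, of which 1.79 Mb (51.5%) lay under a peak. Per chain the covered share had a median of 49.98%, from 28.3% to 96.9%.

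**Figure D1:**
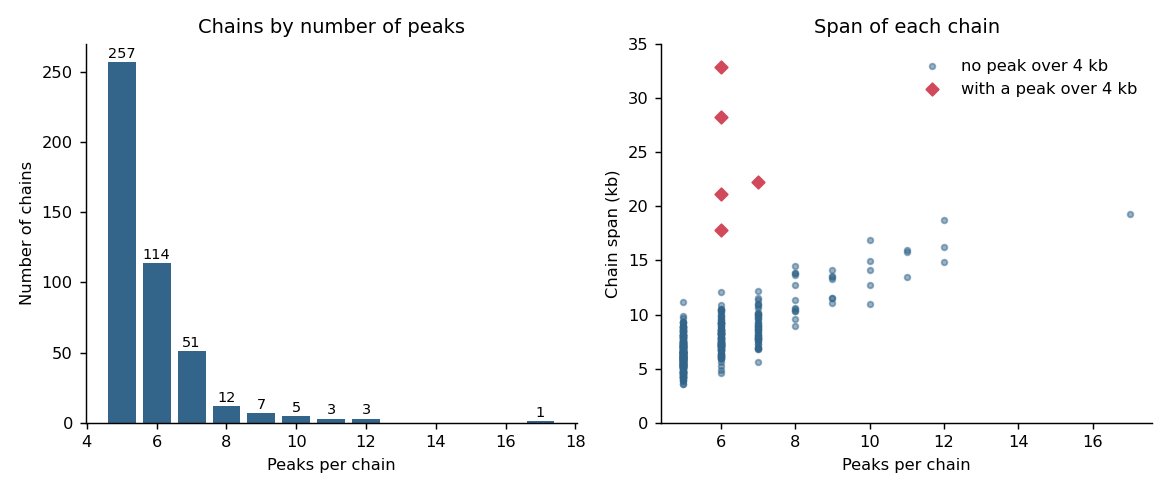
Left, number of chains (y) by peaks per chain (x); right, span of each of the 453 chains in kb (y) by peaks per chain (x), with chains that hold a peak wider than 4 kb as diamonds. Chains of 5 are the tallest bar at 257, and the 5 diamonds, with 6 or 7 peaks, span 17.8 to 32.9 kb.

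The chain with most peaks lay on chromosome 17 from 31953844 to 31973170. Its 17 peaks covered 60.6% of 19.3 kb and carried 3 strong scores, taking 1000 or more on the peak caller's score as strong. That score is the authors' own value for each peak and equals 50 at the list's lower limit. The third peak had the highest score of the chain, 2352.87, the thirteenth scored 1696.65 and the fifteenth 1930.58. Of the other 14 peaks the highest scored 483.23 and the lowest 50.68. The 3 strong peaks were also the widest of the chain, at 942, 1463 and 1342 bases. Between the first strong peak and the next stood 9 weaker ones.

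The next chain, on chromosome 11 from 120217462 to 120236161, had 12 peaks and a different profile. Its ninth peak scored 3100 and was 1836 bases wide, while the other 11 peaks lay between 50.48 and 207.11. Another chain, on chromosome 9 from 110526779 to 110543000, also had 12 peaks. There the sixth peak scored 2065.87 over 1972 bases, the fifth scored 492.25, and the remaining 10 lay between 52.69 and 180.81. In each of these chains of 12 a single strong peak stood with weaker peaks on either side.

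**Figure D2:**
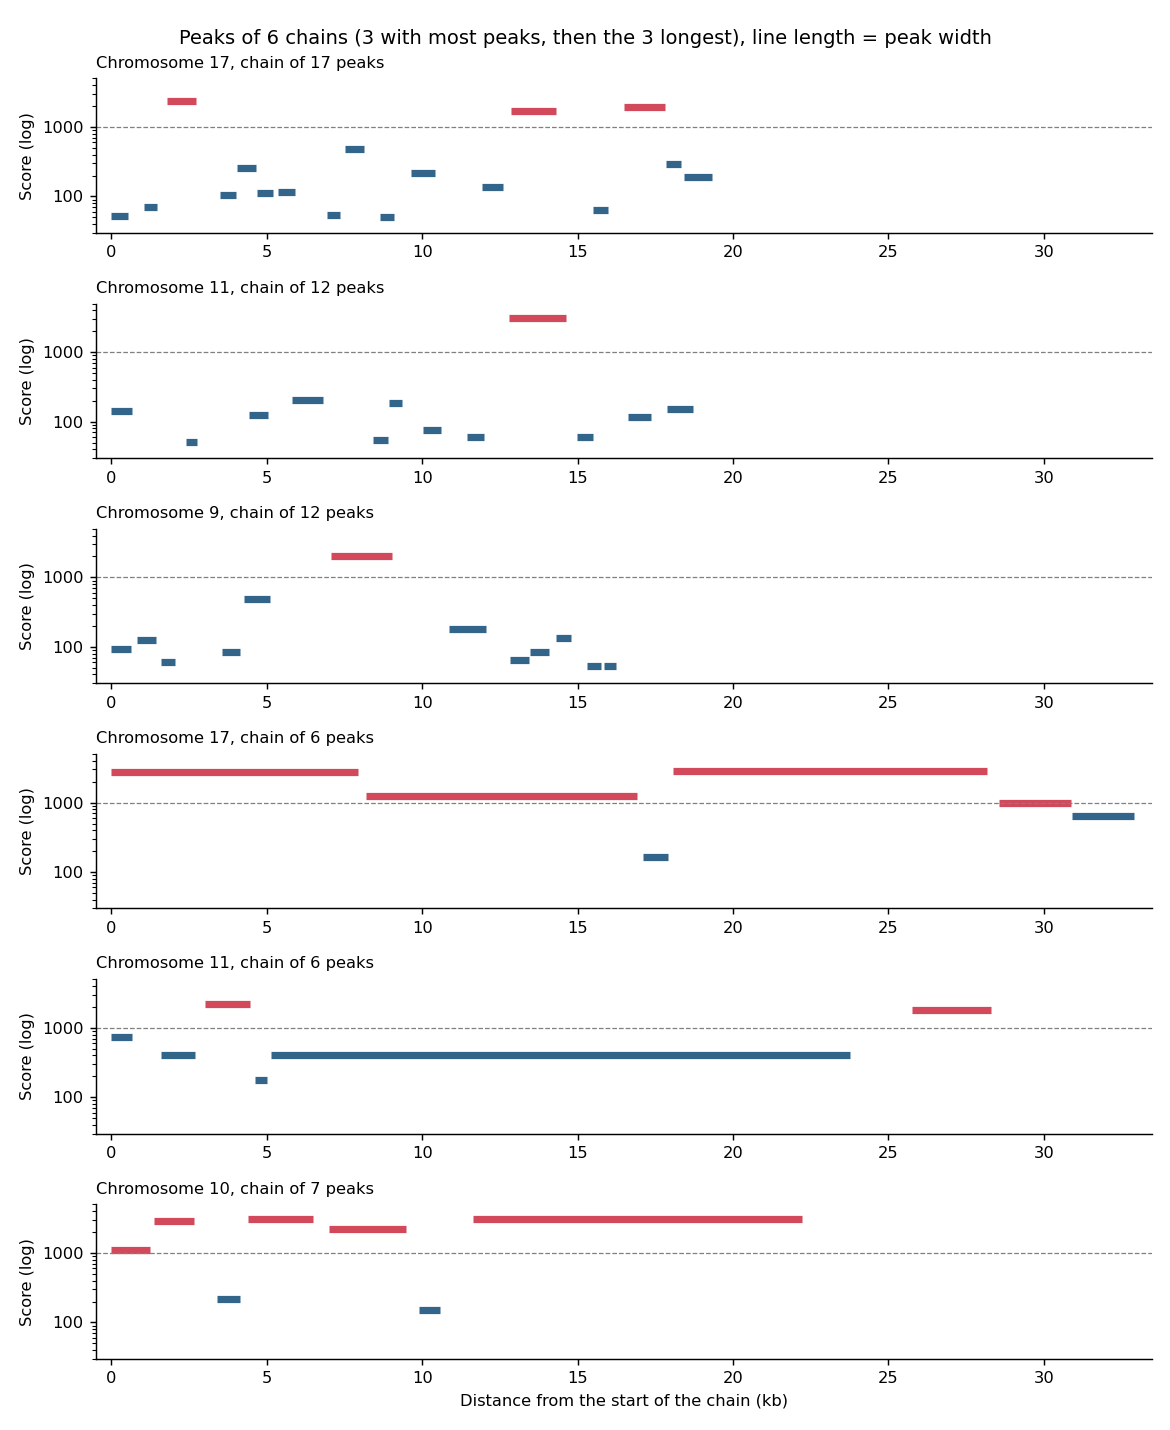
Each line is a peak drawn from its start to its end (x, kb from the start of the chain) at its score (y, log axis), in red at 1000 or more, the dashed line. The upper 3 panels are the chains with most peaks, where narrow weak peaks surround 1 or 3 strong ones; the lower 3 are the chains with the longest spans, where wide peaks fill 86.0% to 96.9% of the span.

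Other chains with many peaks ranged from those with no strong peak to one with a pair of scores of 3100. A chain of 12 on chromosome 2 from 32011942 to 32026783 reached only 477.22, with a second score of 404.67. The 11 peaks on chromosome 10 from 126982003 to 126997990 had no strong member either, yet their median score of 186.51 was above that of the other chains named for their number of peaks, which ran from 70.3 to 136.64. On chromosome 1 from 191665328 to 191681110, 11 peaks included 2 at exactly 3100, the third and the seventh. Those 2 summits stood 1122 and 1825 bases wide, and none of the other 9 peaks exceeded 248.75. On chromosome 16 from 18473295 to 18486782, 1 of 11 peaks scored 3100, next to last in the chain, and the next highest scored 138.97. A chain of 10 on chromosome 19 from 6306522 to 6323401 began with its highest peak (3100), followed at once by its second (1460.54). The last chains of this group, both of 10 peaks on chromosome 4, were weak throughout. They lay from 137268426 to 137283359 with a highest score of 286.41 and from 117941457 to 117955616 with a highest score of 475.9.

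Over all 453 chains the highest score had a median of 443.28 (95% order-statistic interval 351.48 to 574.02; quartiles 201.73 and 1667.2) and ran from 74.14 to 3218.75. The highest value belonged to a chain of 7 on chromosome 5 from 135409185 to 135419003, and the lowest to a chain of 5 on chromosome 15 from 84783314 to 84787139. A score of exactly 3100 is shared by many peaks: 1379 autosomal peaks, 66 of them in chains, carry it. Another 6 chain peaks score above it. The shared value may be a ceiling of the peak caller's score, which was not tested. The order among peaks of 3100 and above is therefore uncertain. The second score of a chain had a median of 165.23 and the lowest score a median of 55.3. In 18 chains every peak scored under 100, and in 113 chains (24.9%) no peak reached 200. A further 183 chains peaked between 200 and 1000. At least 1 strong peak was present in 157 chains (34.7%; exact 95% interval 30.3% to 39.2%).

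Of the 157 chains with a strong peak, 130 had just 1 (82.8%), 21 had 2, 3 had 3, 2 had 4 and 1 had 5. In the list at large, among all runs of 5 consecutive autosomal peaks with a strong peak, 87.6% had just 1. Among chains of exactly 5 with a strong peak, 62 of 66 (93.9%) had just 1. In the 130 chains with 1 strong peak the highest score had a median of 2475.28 and the second a median of 248.05, and in 44 of them (33.8%) all other peaks stayed under 200. A peak of 3100 or more occurred in 69 chains, and 3 chains had 2 such peaks. These were the chain of 11 on chromosome 1 given above, a chain of 6 on chromosome 2 from 172694681 to 172703182, and a chain of 7 on chromosome 10 described below.

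Chains with 3 or more strong peaks numbered 6 and were led by the chain of 7 on chromosome 10 from 74383437 to 74405650, with 5. It was followed by a chain of 9 on chromosome 11 from 19724844 to 19738446, with 4. That chain had scores of 1794.25 in its first place, 3100 in its seventh, 1342.06 in its eighth and 2391.27 in its ninth, and 58.2 to 310.4 in the other 5, so its strong peaks stood at both ends. A chain of 6 at the start of chromosome 17, from 3006096 to 3039001, also had 4. The chain of 17 described first and a chain of 8 on chromosome 17 from 28358079 to 28371889 had 3 each, as did a chain of 6 on chromosome 16 from 3642128 to 3663293, described below. In the chain of 8 the second, sixth and eighth peaks scored 1745.33, 3100 and 1546.18.

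A small set of chains was wide rather than many-peaked. The autosomes hold 18 peaks wider than 4 kb, and 8 of them lay in 5 chains. These 5 chains had only 6 or 7 peaks but spanned 17.8 to 32.9 kb and were covered to at least 86.0%. They took the first 4 places by span and all 5 first places by covered share. The longest, at the first peak of chromosome 17, had peaks of 7939, 8738, 798, 10106, 2332 and 1981 bases with scores of 2804.34, 1262.44, 166.07, 2812.8, 1002.27 and 649.3. The second, at the first peak of chromosome 11 from 3023626 to 3051917, contained the widest peak of the chains (18655 bases), which scored 410.21, while narrower peaks beside it scored up to 2234.99. The chain on chromosome 10 from 74383437 ended in a peak of 10580 bases with a score of 3100. The others lay on chromosome 16 from 3642128 to 3663293, 519 kb after the first peak of that chromosome, and on chromosome 7 from 71218020 to 71235830. Their highest scores were 2900.29 and 1338.79. In total 9 chains were covered to 80% or more, and 7 chains started at most 1 Mb after the first peak, on chromosomes 8, 11, 12, 16 and 17.

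Scores were not used to form chains, so the peaks of chains can be set beside the rest of the list. Among all autosomal peaks 5.75% scored 1000 or more, 42.8% scored 100 or more and 1.62% scored 3100 or more. In the chains the corresponding shares were 7.40% (194 of 2621; exact 95% interval 6.43% to 8.47%), 46.9% (44.9% to 48.8%) and 2.75% (2.16% to 3.45%). Peaks in chains of 2 to 4 had 6.48% at 1000 or more (6.20% to 6.76%), and single peaks 5.31% (5.14% to 5.50%). Median scores were close together: 94.63 in the chains (95% order-statistic interval 90.97 to 98.48), 88.57 in chains of 2 to 4 (87.69 to 89.61) and 86.33 in single peaks (85.80 to 86.96). The share of strong peaks was higher in chains than in single peaks on 14 of 19 autosomes, and the median score on 16 of 19.

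This gap was larger when only neighbours in the same megabases were used. In the 1 Mb bins that hold chain peaks, 4.93% of the 25238 peaks outside chains scored 1000 or more (4.67% to 5.21%), and their median score was 85.52 (84.53 to 86.23). Single peaks of these bins had a strong share of 4.29% (3.96% to 4.65%), and peaks in chains of 2 to 4 there had 5.69% (5.27% to 6.12%).

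Peak width moved with these scores and also entered the joining rule, since a wider peak leaves a shorter gap. Peaks in chains had a median width of 576 bases (95% order-statistic interval 565 to 584), against 527 bases in chains of 2 to 4 and 499 bases in single peaks. Within bands of score the order was similar, though scores inside a band were not matched. Under 100 the medians were 476 bases in chains and 444 in single peaks, and at 1000 or more they were 1111 and 788 bases. Joining by midpoints up to 2500 bases apart, an alternative chosen after seeing the data, gave 393 chains with a strong share of 6.26% against 5.74% outside. No interval was computed for this midpoint share, so whether it differs from the share outside is not settled. Width still enters the midpoint rule, in the other direction, since the midpoints of wide peaks lie farther apart at the same gap. Without the 5 chains that hold a peak over 4 kb the share was 6.87%.

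**Figure D3:**
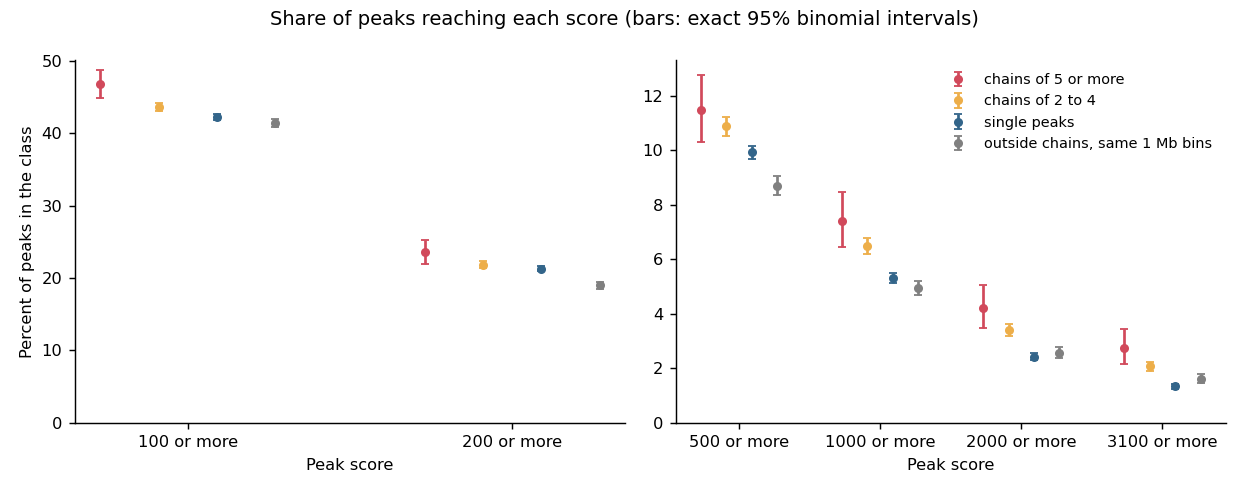
Percent of peaks (y) that reach each score (x) in chains of 5 or more, chains of 2 to 4, single peaks, and peaks outside chains of 5 or more in the same 1 Mb bins; bars are exact 95% binomial intervals. At 1000 or more the 4 classes stand at 7.40%, 6.48%, 5.31% and 4.93%.

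The share of strong peaks was also taken by chain size. In chains of exactly 5, 5.45% of 1285 peaks were strong (4.27% to 6.83%), near the 5.75% of all autosomal peaks. The share was 9.06% in chains of 6 (7.02% to 11.5%), 9.24% in chains of 7 (6.45% to 12.7%) and 9.83% in chains of 8 or more (6.68% to 13.8%). Without chains that hold a peak over 4 kb, chains of 6 and 7 had 7.73% (5.81% to 10.04%) and 8.00% (5.38% to 11.4%), and both intervals overlap that of chains of 5. As a further yardstick, every run of 5 consecutive autosomal peaks was taken, whatever the distance between them (92155 overlapping runs). Such runs held at least 1 strong peak in 25.4% of cases and 2 or more in 3.15%, and their highest score had a median of 367.38. Chains of exactly 5 held at least 1 in 25.7% (66 of 257) and 2 or more in 1.56% (4 of 257), with a median highest score of 287.76. The share with a strong peak was thus close to that of ordinary runs. The median highest score was lower, with an interval (253.2 to 337.63) that does not contain the runs' value. Runs were taken from all megabases and not only from those with chains, so the part of location in this difference was not tested.

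At the threshold of the rule itself, chains of 4 peaks, just outside, numbered 724 and chains of 5, just inside, numbered 257. A strong peak was present in 26.7% of the former (23.5% to 30.04%) and 25.7% of the latter (20.5% to 31.5%). Highest scores had medians of 306.78 (257.19 to 359.1) and 287.76 (253.2 to 337.63), and gaps had medians of 723 and 716.5 bases. On the distance limit, 62 chains contained a gap within the last 100 bases of the limit, and 15 would have gained a further peak had the limit been 100 bases longer.

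The highest score of a chain showed no strong preference for a place. It stood first in 80 chains, last in 69 and inside in 301 (66.4%; exact 95% interval 61.9% to 70.8%), and 3 chains had a tie for the highest. If each place of a chain held the highest score equally often, 64.2% of chains would have it inside. In chains of exactly 5 the highest score fell on places 1 to 5 in 48, 58, 51, 50 and 50 chains. In chains of 7 the inner share was 78.4% (40 of 51; 64.7% to 88.7%) against 71.4% with equal places, and in chains of 8 or more it was 71.0% (22 of 31; 52.0% to 85.8%) against 78.3%. Both intervals contain the share that equal places would give.

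Median scores along chains of 5 were 85.91, 97.27, 93.88, 93.39 and 85.13 from the first to the fifth place. The values at the ends were the lowest, but their intervals (79.45 to 101.64 and 77.04 to 95.7) overlapped those of the inner places. Over all chains, inner peaks had 7.93% strong members (6.69% to 9.31%) and end peaks 6.40% (4.90% to 8.20%). The direction from first to last follows the chromosome's numbering, not a gene's orientation, so a preference tied to transcription would not show here.

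**Figure D4:**
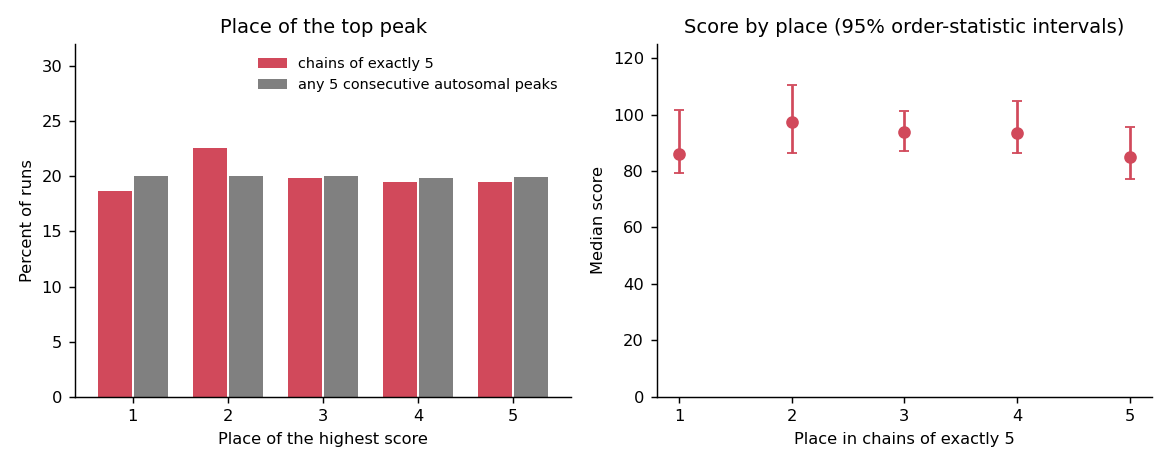
Left, percent of runs (y) whose highest score falls on each place (x), for the 257 chains of exactly 5 and for any 5 consecutive autosomal peaks; right, median score (y) by place (x) in chains of exactly 5 with 95% order-statistic intervals. Chains range from 18.7% to 22.6% per place, beside about 20% for runs of the list.

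Peaks close to a summit and peaks farther away had similar median scores. In the 157 chains with a strong peak, the 271 peaks next to the highest one had a median score of 95.73 (84.03 to 109.35). The 215 peaks 2 places away had a median of 106.18 (95.64 to 120.18). The 327 peaks 3 or more places away had one of 96.44 (85.31 to 109.95). In the same order, 3.32% (1.53% to 6.21%), 5.58% (2.92% to 9.55%) and 4.89% (2.82% to 7.82%) were strong, with overlapping intervals. Gaps beside the highest peak had a median of 568 bases (quartiles 232.5 and 1135), and other gaps of the same chains one of 651 bases (220.5 and 1201.5). Gaps of at most 100 bases were as frequent beside the summit (12.5%) as elsewhere (12.4%). The widest peak of a chain was also its highest in 260 chains (57.4%).

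Chains were far more uneven over the chromosomes than peaks were. Every autosome had at least 1 chain, with a mean of 0.187 ± 0.123 chains per Mb (SD over 19 autosomes), taking the distance from first to last peak as length. Chromosome 11 was highest at 0.455 chains per Mb (54 chains; 95% Poisson interval 0.341 to 0.593). It was followed by chromosome 4 at 0.367 (56 chains; 0.277 to 0.476), chromosome 8 at 0.335 (43 chains; 0.243 to 0.452) and chromosome 17 at 0.282 (26 chains; 0.184 to 0.413). The intervals of chromosomes 11, 4 and 8 overlap, so their order is not settled. At the low end, chromosome 3 had 4 chains (0.0256 per Mb; 0.00696 to 0.0654), chromosome 12 had 5, and chromosomes 6 and 13 had 6 each. Chromosome 11 thus exceeded chromosome 3 by 17.8 times in chains per Mb and by 2.39 times in peaks per Mb. Across the 19 autosomes chains per Mb and peaks per Mb had a Spearman rho of 0.88, given as a description because chains are made of the same peaks.

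The share of a chromosome's peaks that lay in chains was not in the order of its mean peaks per Mb. It was highest on chromosome 4 (5.19% of 6357 peaks), which had 41.7 peaks per Mb, and 4.38% on chromosome 11, which had 61.2. Chromosome 2, with the same 41.7 peaks per Mb as chromosome 4, had 3.02%, and chromosome 9, with 43.0 per Mb, had 2.56%. Chromosome 10 reached 4.19% at only 36.8 peaks per Mb, and chromosome 3 had the lowest share, 0.524%. These densities are means over whole chromosomes, and the part of local density in these shares was not tested.

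Within chromosomes, chains sat in the megabases with most peaks. Of 2387 whole 1 Mb bins, 206 held 100 or more peaks; these had 28.9% of the binned peaks but 72.7% of the chains (322 of 443), and 73.3% of them had a chain. Bins with 50 to 99 peaks had 36.7% of peaks and 23.9% of chains, and bins with 25 to 49 peaks had 21.8% and 3.39%. None of the 1137 bins with fewer than 25 peaks had a chain, although together they held 12.6% of the peaks. The share of peaks that lay in chains rose over these classes from 0% to 0.396%, 1.8% and 7.13%. More peaks per megabase leave shorter distances, and the part of density in this rise was not tested.

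**Figure D5:**
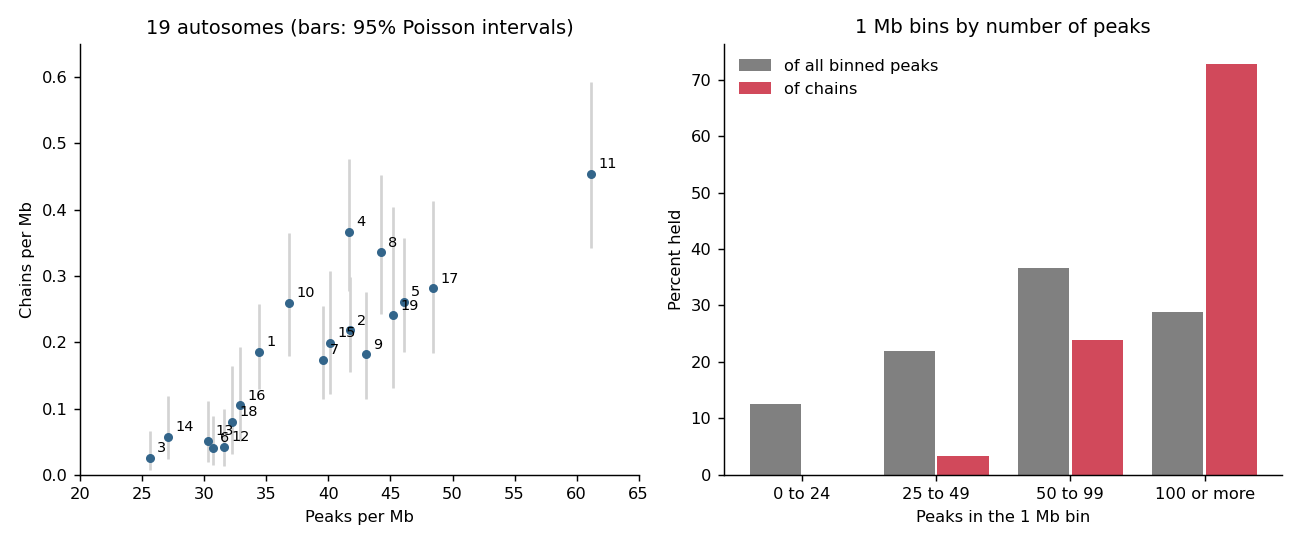
Left, chains per Mb (y) against peaks per Mb (x) for the 19 autosomes, labelled by number, with 95% Poisson intervals; right, percent of all binned peaks and of chains (y) held by 1 Mb bins of increasing peak number (x). Chromosome 11 is highest on both axes, and bins with 100 or more peaks hold 28.9% of peaks and 72.7% of chains.

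All chains together fell in 261 bins by their midpoint, 164 of which had 1 chain, 76 had 2 or 3, and 21 had 4 or more. The 25 bins with most chains held 27.4% of them (124 chains). On chromosome 10 the bin from 80000001 to 81000000 had 11 chains with 67 peaks, 26.3% of its 255 peaks, and its left neighbour had 9 chains with 52 peaks, 21.9% of 237. These 2 bins alone thus had 20 of the 33 chains of the chromosome. Most of their chains were weak, with a strong peak in 3 of 11 and 1 of 9. Most chains in the whole set were likewise without a strong peak (296 chains, 65.3%).

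The highest scores of chains varied among bins with many chains, but each bin had few chains and the variation was not tested. Over all 453 chains the median highest score was 443.28, and 34.7% had a strong peak. On chromosome 8 the bin from 125000001 had 7 chains, none with a strong peak, and a median highest score of 136.58. On chromosome 11 the bins from 117000001 and 116000001 had 7 and 6 chains, with medians of 269.07 and 344.56. By contrast, the bin from 191000001 on chromosome 1 had 6 chains with a median highest score of 1754.87, of which 3 had a strong peak, although the whole bin held only 113 peaks. Chains made up 32.7% of those, the highest share among the 21 bins with 4 or more chains. On chromosome 2 the bin from 172000001 had 5 chains with a median of 1922.93 and a strong peak in 3.

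Some neighbouring chains were near one another. From the end of a chain to the start of the next on the same chromosome the median distance was 510 kb (434 pairs). In 97 pairs (22.4%) it was at most 100 kb and in 28 pairs at most 10 kb, with a shortest of 2.05 kb. Along the autosomes, the last 10% of the length between first and last peaks held 28.0% of chains (127) and 17.7% of peaks, and the first 10% held 6.62% of chains (30) and 7.52% of peaks. The fewest chains, 3.53% (16), lay between 30% and 40% of the length, beside 8.08% of peaks.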

How the data were processed

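ChIP-seq peaks for p53 were analysed from 1 p53 ChIP library and 1 input library, grouped by their titles. CASAVA 1.8.2, MACS 1.4.1 and build mm9 are named per the submitters' processing notes; aligner, read totals and caller settings: not given in the sources used here. Depth is therefore unknown. The score of each peak was deposited as the authors' peak caller wrote it; in MACS 1.4 it is a multiple of the negative log10 p-value over the input, which grows with depth, so scores were compared only inside this list. Starts, which the authors deposited counted from 0 as BED files do, are printed counted from 1.

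Peaks were joined and summarised with pandas 2.3.3, NumPy 2.4.6 and SciPy 1.17.1 under Python 3.11.15; figures used Matplotlib 3.10.9. Joining was tested on simulated lists with planted chains, all of which were recovered. Intervals are exact (Clopper-Pearson) for shares, order-statistic for medians and Poisson for counts per Mb. Chains were assigned to 1 Mb bins by midpoint. No test was run, because each group has 1 library. The chains, thresholds and lists were chosen with earlier results of these data known. Chains were named by rule: the 10 with most peaks (ties by longer span, which left out 2 further chains of 10), and the 5 with the longest span, with most strong peaks (ties by more peaks, then by summed score) and with the largest covered share; 17 distinct chains resulted. Other chains, chosen after their values were seen, are the extremes of the highest score and the chain on chromosome 2 with 2 peaks of 3100 or more. Base composition, p53 motifs, promoters and gene lists, planned in case an mm9 genome or annotation was at hand, were not analysed here. Alternatives were other joining distances, chain sizes and score minimums, removal of peaks over 4 kb, merging of peaks up to 100 bases apart, a different order for scores of 3100, the widest peak in place of the highest, shifted bins and chain peaks per Mb; joining by midpoints and leaving out chains with a peak over 4 kb were added after seeing the data.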

Additional observations from a re-analysis of the deposited data

How the results depend on the processing

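Each of 10 results was recomputed with other settings, giving 95 values; 44 stayed within the interval of the reported value (the number of chains within 1.5 times), and 51 moved. Most moves follow from the construction, since another distance, chain size or score minimum keeps other peaks. Joining up to 1000 bases apart left 114 chains with 0.669% of autosomal peaks, a median span of 5418.5 bases, 8.75% strong peaks, a median score of 99.87, a median highest score of 575.64, 37.7% of chains in the 25 densest bins and 0.152 chains per Mb on chromosome 11. Joining up to 5000 bases gave 2002 chains with 14.7% of peaks, 13542 bases, 6 peaks per chain, 6.22% strong peaks (5.67% outside), a median score of 89.86, 14.98% of chains in the densest bins and 1.89 chains per Mb. Chains of 4 or more numbered 1177, with 5.98% of peaks, 5512 bases, 4 peaks per chain, a median highest score of 346.57, the highest inside in 55.7% (55.5% if each place of a chain were equally frequent), 19.03% in the densest bins and 1.25 per Mb. Chains of 7 or more numbered 82, with 0.707% of peaks, 9954.5 bases, 7 peaks per chain, 9.51% strong peaks, a median highest score of 1103.14, the highest inside in 75.6% (74.0% with equal places), 42.7% in the densest bins and 0.0852 per Mb, highest on chromosome 4. With peaks of 100 or more only, 25 chains remained, with 0.349% of the peaks of that score. They had a median span of 8938 bases and 22.5% strong peaks (13.4% outside). Their median score was 249.05 and their median highest score 1338.79, with the highest inside in 60.0% (63.0% with equal places). The densest bins held 100% of them, because no more than 25 bins can be filled. Chains per Mb reached 0.0542, highest on chromosome 17. Merging peaks up to 100 bases apart gave 2.11% of the merged peaks, 7567 bases and 0.286 chains per Mb. Joining by midpoints gave 2.44% of peaks, 6763 bases, 6.26% strong peaks (5.74% outside) and a median score of 90.94. The widest peak stood inside in 60.9%, and chain peaks per Mb reached 2.68 on chromosome 11. Removal of peaks or chains over 4 kb moved none of the 10 results.

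No paired analysis was possible because the ChIP and the input were 1 library each, which also leaves no replicate to omit. Unknown depth limits any statement on weak peaks: most chain peaks scored under 100, and 25 chains were left without them.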

Other observations

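On the sex chromosomes, which the rule left out, the same joining distance gave no chain of 5 or more. Chromosome X, with 687 peaks, had 24 chains of 2 to 4, which held 7.28% of its peaks, against 32.6% of autosomal peaks in chains of that size. The largest chains on X had 3 peaks. In one of these, the third peak, from 150384927 to 150386042, scored 2623.56 beside peaks of 63.12 and 92.21. In the other, from 32096871 to 32101832, scores were 84.97, 121.11 and 97.53. The 6 peaks on chromosome Y were all single. The autosome with the fewest peaks, chromosome 19, had 2632. No chain arose in any autosomal 1 Mb bin with fewer than 25 peaks. Whether the low number of peaks on X accounts for its lack of such chains was not tested.

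Chains outside peak-dense regions were few. Of 557 bins with 25 to 49 peaks, 14 had a chain, 15 chains in all. The bin with the fewest peaks among these, on chromosome 1 from 51000001 to 52000000, held 27 peaks, of which 5 formed a chain with a highest score of 3100. A bin of 32 peaks on chromosome 9 from 27000001 likewise had a chain of 5 with a highest score of 2236.78.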
